A study of Mus musculus with 4 samples.

Results

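The cells described here are crypt epithelial cells of the mouse small intestine in which at least 4 of 8 genes were detected together: *Plet1*, *Tac1*, *Tat*, *Lrg1*, *C2cd4b*, *Hsd11b2*, *Fut2* and *Stc2*. They are called Plet1-set cells below. A cell belonged to them if at least 4 of the genes had 1 or more UMIs (unique molecular identifiers, which tag single captured transcripts) and if transcripts of genes named *Defa*, the alpha-defensins of Paneth cells, made up less than 20% of its UMIs. This held for 1727 of 26498 cells. They were compared with 5889 cells of the same libraries that also had less than 20% *Defa*, had at least 3 UMIs each of the mucus genes *Zg16*, *Fcgbp* and *Clca1*, and were not in the Plet1 set (comparison cells). Membership rests on measured levels of the 8 genes, so those levels are given without tests.

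The label slc7a5 fl/fl was given to 2 libraries and slc7a5 IEC-KO to the other 2, and the mice, 8 weeks of age, all carried the floxed *Slc7a5* allele. The IEC-KO mice also carried Cre under the villin promoter, which acts in the whole intestinal epithelium, and the Cre line had been backcrossed to C57BL/6J. The question put to the single cell data was which crypt cell types change when the epithelium lacks the amino acid transporter SLC7A5. Live EpCAM+ CD45- cells were sorted and read with the 10x Genomics 3′ kit, version 2, and the records name 4 mice without saying how these were divided among libraries.

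The libraries labelled fl/fl held 3633 and 3217 cells with 113529509 and 119339206 UMIs, and those labelled IEC-KO held 10004 and 9644 cells with 87922473 and 127094508 UMIs. Of *Slc7a5* (chromosome 8, 121881150 to 121907694, minus strand, GRCm38), 140 and 128 UMIs were counted in the libraries labelled fl/fl and 350 and 615 in those labelled IEC-KO. In Plet1-set cells the counts were 2 and 2 against 37 and 68. The targeted gene was thus counted more often, not less, under the IEC-KO label, and the 3′ kit does not show whether a transcript holds the floxed first exon. Every direction between genotypes given here rests on the labels.

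Goblet cells make the mucus that covers the gut, and Paneth cells at the crypt base fill granules with antimicrobial peptides. Both arise from the secretory progenitors of the crypt. Cytokines that act through STAT3, among them interleukin-22, make the epithelium produce antimicrobial lectins and add fucose to its glycans. When amino acids are short or proteins misfold, the transcription factor ATF4 turns on genes for amino acid synthesis, amino acid uptake and tRNA charging.

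The 8 genes come from unlike pathways. *Plet1* encodes a surface protein of epithelial progenitors, *Tac1* the precursor of substance P and neurokinin A, *Tat* tyrosine aminotransferase and *Lrg1* a secreted leucine-rich glycoprotein of the acute phase response. *Hsd11b2* inactivates glucocorticoids, *Fut2* adds terminal fucose to glycans, *Stc2* is a secreted glycoprotein and known ATF4 target, and *C2cd4b* encodes a protein with a C2 domain. They lie on 6 chromosomes of GRCm38: *Plet1* (50494525 to 50505482, plus strand) and *C2cd4b* (67759437 to 67760930, plus strand) on chromosome 9, *Tat* (109990437 to 109999803, plus strand) and *Hsd11b2* (105518755 to 105523988, plus strand) on chromosome 8, *Tac1* on chromosome 6 (7554879 to 7565834, plus strand), *Lrg1* on chromosome 17 (56119678 to 56122001, minus strand), *Fut2* on chromosome 7 (45648591 to 45666394, minus strand) and *Stc2* on chromosome 11 (31357307 to 31370074, minus strand).

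Of all cells, Plet1-set cells made up 2.89% (95% confidence interval 2.37 to 3.49, exact Clopper-Pearson) and 2.70% (2.17 to 3.33) of the libraries labelled fl/fl. They made up 6.30% (5.83 to 6.79) and 9.38% (8.81 to 9.98) of those labelled IEC-KO. These are 105, 87, 630 and 905 cells. The mean was 2.80% ± 0.131 (SD, n = 2) against 7.84% ± 2.18 (n = 2), and the libraries did not overlap. Permuting the 4 libraries in an exact, two-sided test gave p = 0.333, which is the smallest value that 2 against 2 libraries allow. As a share of Plet1-set and comparison cells together they were 12.9% and 13.0% against 22.4% and 27.2%, with the same p. The intervals cover counting error only.

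Depth enters the rule, because a deeper cell shows more of the 8 genes. The median total of Plet1-set cells was 11799 and 11648 UMIs in the libraries labelled fl/fl and 6673 and 9350 in those labelled IEC-KO. The higher shares were thus found in the shallower libraries. With every cell thinned to 3500 UMIs, 10, 4, 242 and 231 Plet1-set cells were left, or 0.275%, 0.124%, 2.42% and 2.40% of all cells. With 1 lower limit of 9670 UMIs for all libraries the shares were 2.72%, 2.70%, 4.31% and 8.37%. Levels of single genes enter the rule too. *Stc2* was detected in 1.70% and 2.59% of comparison cells labelled fl/fl and in 19.0% and 22.7% of those labelled IEC-KO. No alternative left *Stc2* or *Tat* out of the rule, so their part in the shares was not tested.

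**Figure D1:**
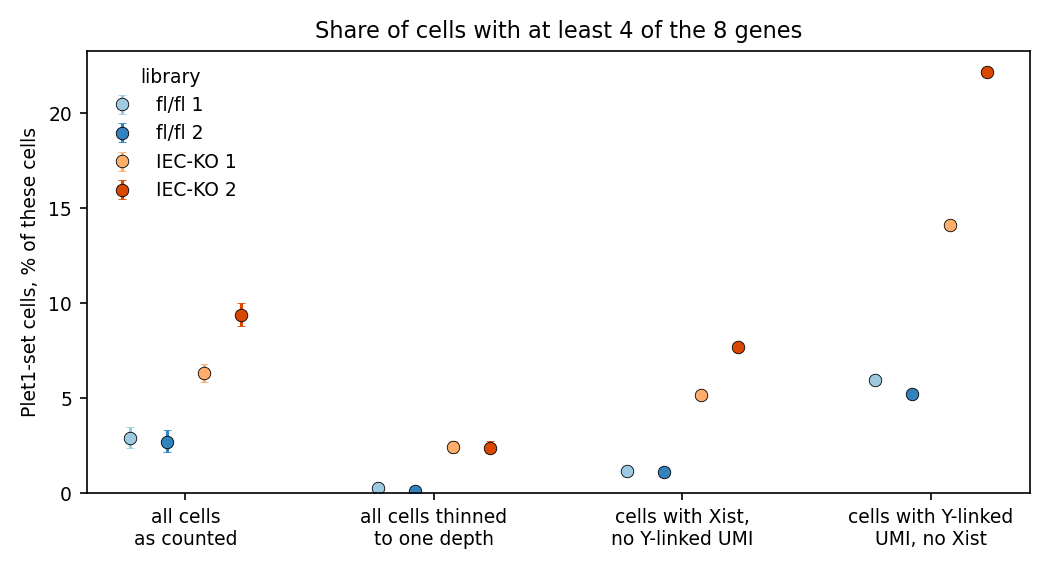
Plet1-set cells as a percentage of the cells named on the horizontal axis, 1 point for each library; bars on the first and second sets are 95% binomial intervals. Both libraries labelled IEC-KO lie above both labelled fl/fl in all 4 sets, from 2.40% and 2.42% against 0.124% and 0.275% at equal depth to 14.1% and 22.2% against 5.21% and 5.94% in cells with Y-linked UMIs and no *Xist*.

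All 4 libraries held cells with transcripts of *Xist*, which female cells make, and cells with transcripts of the Y-linked genes *Ddx3y*, *Eif2s3y*, *Kdm5d* or *Uty*. Both were seen together in 666, 739, 436 and 796 cells, and Y-linked UMIs without *Xist* in only 505, 403, 305 and 212. Y-linked UMIs were seen in 39.0% and 37.9% of Plet1-set cells in the libraries labelled fl/fl and in 14.1% and 21.1% in those labelled IEC-KO. In comparison cells the shares were 31.4% and 38.3% against 6.36% and 8.32%. *Xist* was lower in Plet1-set than in comparison cells of each library, by log2 ratios of -1.48 and -1.85 in the libraries labelled fl/fl and -0.45 and -0.46 in those labelled IEC-KO. Sex-linked transcripts thus moved with membership and with the labels, and their part in the differences given here was not tested. The shares within each kind of cell are given below, and the ratios for some of the genes only. These kinds name the transcripts detected in a cell and do not separate female from male cells.

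The share of Plet1-set cells was higher among cells with Y-linked UMIs and no *Xist* than among cells with *Xist* and no Y-linked UMI in each library. In cells with *Xist* alone it was 1.19% and 1.09% in the libraries labelled fl/fl and 5.19% and 7.71% in those labelled IEC-KO. In cells with Y-linked UMIs alone it was 5.94% and 5.21% against 14.1% and 22.2%. The libraries of the 2 genotypes did not overlap in either kind of cell.

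At the edge of the rule, 175, 137, 533 and 761 cells had 3 of the 8 genes and were left out, and 71, 69, 343 and 427 had exactly 4. Their median totals were close, 10649 and 10953 UMIs in fl/fl replicate 1 and 8889 and 9072 in IEC-KO replicate 2. A further 33, 41, 112 and 372 cells had at least 4 of the genes but 20% or more *Defa*. In the libraries labelled fl/fl those cells were deep, with medians of 63710 and 67574 UMIs.

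Levels per class are given in CPM, the UMIs of a gene relative to all UMIs of the class. *Plet1* was at 78.0 and 54.6 CPM in Plet1-set cells of the libraries labelled fl/fl and at 197 and 148 in those labelled IEC-KO, against 3.45, 4.62, 11.6 and 10.5 in comparison cells. *Tac1*, with the most UMIs of the 8, was at 287 and 253 CPM against 499 and 416. It was at 114, 109, 131 and 115 in comparison cells, where it also had the most. *Tat* was at 9.75 and 13.4 in the libraries labelled fl/fl and at 90.6 and 77.7 in those labelled IEC-KO, and in comparison cells at 1.48, 1.90, 11.5 and 9.64. *Stc2* was at 14.3 and 13.4 against 127 and 93.6, and in comparison cells at 1.48, 2.17, 39.2 and 33.2. Both genes were thus higher under the IEC-KO label in either class.

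*Lrg1* was at 73.5 and 79.6 CPM in the libraries labelled fl/fl and at 77.8 and 55.3 in those labelled IEC-KO. *Lrg1* levels of the 2 genotypes therefore overlapped, as did those of *Fut2* (66.8 and 61.7 against 84.8 and 62.1) and *Hsd11b2* (166 and 147 against 148 and 120). *C2cd4b* was at 128 and 97.5 against 153 and 170. Plet1-set cells of the 2 genotypes were thus chosen by different combinations. *Tat* was detected in 12.4% and 13.8% of those labelled fl/fl and 42.7% and 47.2% of those labelled IEC-KO, *Stc2* in 16.2% and 17.2% against 62.4% and 63.0%, and *Lrg1* in 47.6% and 54.0% against 28.7% and 30.7%.

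**Figure D2:**
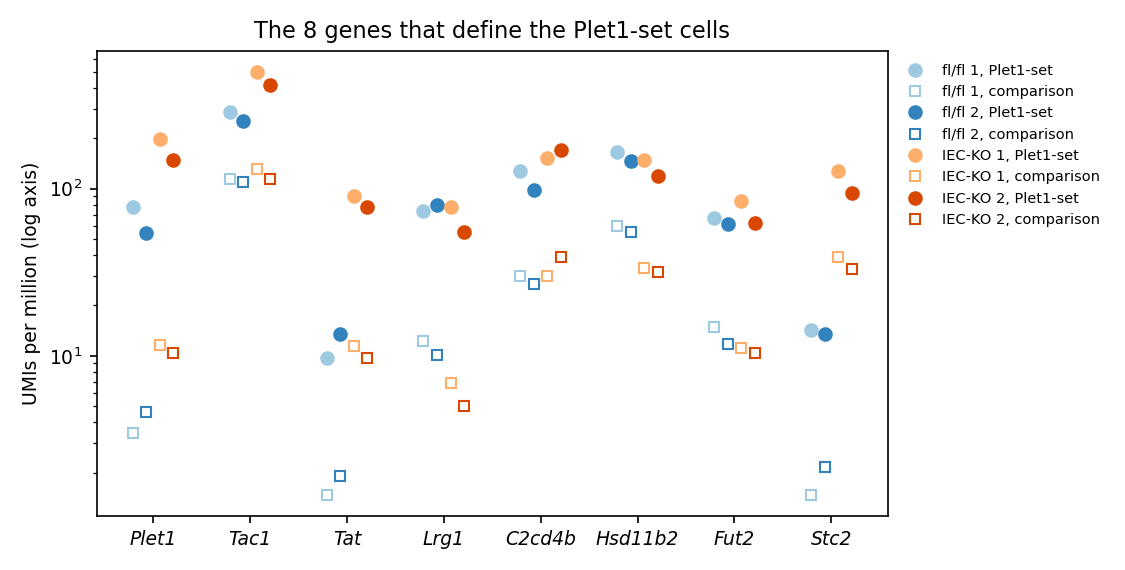
CPM (UMIs scaled to the class total) of the 8 genes on a log axis, filled circles for Plet1-set cells and open squares for comparison cells, 1 symbol for each library. *Plet1* is the gene furthest apart between the classes, at 54.6 to 197 against 3.45 to 11.6, and *Tat* and *Stc2* differ most between the genotypes.

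*Tac1* UMIs were also found in 53.0% and 53.9% of cells with 20% or more *Defa* in the libraries labelled fl/fl (median depths 45328.5 and 51663 UMIs), cells that hold mostly Paneth granule transcripts. The level there was 19.2 and 16.7 CPM, and with equal depth 7.06% and 6.08% of these cells had a *Tac1* UMI, against 51.4% and 49.4% of Plet1-set cells. For *Plet1* the same shares at equal depth were 0.467% and 0.589% against 17.1% and 13.8%. The cells with 20% or more *Defa* in the libraries labelled IEC-KO were shallower (11753 and 17427.5 UMIs) and held more of both genes, with *Tac1* at 37.1 and 42.2 CPM. At equal depth 11.3% and 13.7% of them had a *Tac1* UMI and 3.1% and 3.71% a *Plet1* UMI, against 72.1% and 59.1% and against 46.3% and 33.5% of Plet1-set cells. The part of free RNA in these counts was not tested.

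The working name of the set, goblet-like, held only for some of its cells. At least 3 UMIs each of *Zg16*, *Fcgbp* and *Clca1* were present in 73.3%, 67.8%, 47.1% and 57.6% of Plet1-set cells, but also in 86.1%, 89.8%, 26.4% and 52.1% of cells with 20% or more *Defa*. All 26 goblet markers were counted, and their summed level was 183324, 193540, 155035 and 151845 CPM in Plet1-set cells against 193866, 180716, 201510 and 182225 in comparison cells. Without *Zg16*, *Fcgbp* and *Clca1*, which chose the comparison cells, the sums were 163730, 173029, 143635 and 140545 CPM against 158723, 146952, 162579 and 151528. The most abundant marker was *Spink4* in Plet1-set cells and *Tff3* in comparison cells. The 12 Paneth markers, led by *Defa24*, summed to 67234, 84386, 78521 and 89847 CPM against 63064, 65875, 62643 and 71047 in comparison cells. Of the 23 enteroendocrine markers outside the rule, which holds *Tac1*, none was at least 2-fold higher than in comparison cells in all 4 libraries (0.288% of all genes were). *Chga*, the granin that defines enteroendocrine cells, differed by log2 -0.73 ± 0.15 (SD, n = 4). The sum of all 24 markers, with *Tac1* and led by *Reg4*, was 2226, 2354, 6185 and 6023 CPM against 1739, 1547, 4480 and 4477 in comparison cells. Of 9 immune markers, *Cd3e*, *Cd3g*, *Cd79a*, *Jchain* and *Coro1a* had no UMI in Plet1-set cells.

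Clustered on their own, without the 8 genes and the alpha-defensins and without integration, the Plet1-set cells formed 7 groups. A marker was counted for a group if its level passed a set multiple of that in the other Plet1-set cells. These counts do not show presence: *Zg16*, *Fcgbp*, *Muc2* and *Tff3* were detected in 100% of group 3 cells, where no goblet marker was counted. Group 1 (414 cells) was led by *Sst*, *Retnlb* and the alpha-defensin *Defa17* and had a median of 13.4% alpha-defensin transcripts under any name. In it 8 of 12 Paneth and 3 of 24 enteroendocrine markers (*Sst*, *Reg4* and *Gip*) were counted. Each of these lists had 3 markers among the group's 10 leading genes. Group 2 (414 cells) was led by *Zg16*, *Clca1* and *Serpina1b*, and 86.5% of its cells carried the 3 mucus genes. Group 3 (410 cells) was led by *Sprr2a3*, a cornified envelope gene, *Steap1* and *Adig*, with *Tac1*, *Plet1*, *Tat* and the stress factor *Atf3* among its 10 leading genes and a mean of 5.12 of the 8 genes per cell. Group 4 (154 cells) was led by *Gm15292* and *Defa21*, with 8 goblet and 5 Paneth markers counted. In group 5 (150 cells) 14 of 14 cycling markers were counted and in group 7 (58 cells) 11 of 16 enterocyte markers. Group 6 (127 cells) was led by *Ghrl*, *Scd2* and *H2-Aa*.

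Groups 1, 2, 3 and 6 held 1 cell of the libraries labelled fl/fl and 1364 of those labelled IEC-KO. Group 4 held 81 and 70 cells of the libraries labelled fl/fl and 1 and 2 of those labelled IEC-KO. The cycling group 5 took 20.0% and 17.2% of Plet1-set cells in the libraries labelled fl/fl and 6.03% and 8.40% in those labelled IEC-KO. As genes that differed between the libraries drew these borders, group sizes were not compared between genotypes, and differences between genotypes within the set also compare group 4 with groups 1, 2 and 3.

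**Figure D3:**
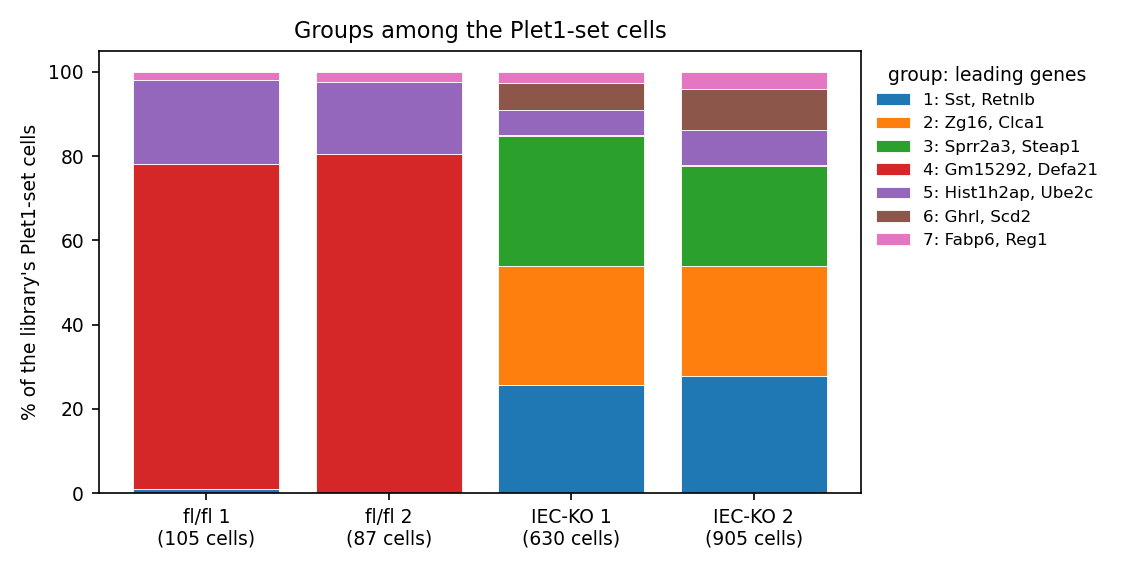
Percentage of each library's Plet1-set cells in the 7 groups, 1 bar for each library with its number of cells; each group is named by its 2 leading genes. Group 4 fills 77.1% and 80.5% of the bars labelled fl/fl, and groups 1, 2 and 3 fill most of those labelled IEC-KO.

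Against comparison cells of the same library, the antimicrobial lectins *Reg3g* and *Reg3b*, the goblet cell protein *Retnlb* and the neutrophil surface gene *Cd177* were higher in Plet1-set cells, and *Gsta4*, a glutathione transferase, and *Scin*, an actin-severing protein, were lower. Of 13175 genes measured, 38 (0.288%) were at least 2-fold higher in all 4 libraries and 86 (0.653%) at least 2-fold lower. All 8 genes of the rule were among the 38, which the rule itself brings about. Since the cells were chosen by their transcripts, these ratios are a description without a test.

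*Reg3g* was at 13281, 14670, 17065 and 14459 CPM (here and in all later gene values after TMM scaling between libraries) in Plet1-set cells and at 5907, 5924, 4841 and 4694 in comparison cells. All 4 Plet1-set values lay above all 4 comparison values, with a mean log2 ratio of 1.48 ± 0.29 (SD, n = 4). *Reg3b* was at 9815, 9458, 6520 and 5739 CPM against 4316, 4217, 2286 and 2533, a log2 ratio of 1.26 ± 0.17. *Cd177* was at 101, 102, 115 and 119 CPM against 42.3, 37.5, 43.7 and 42.4, the steadiest of the ratios in this group at 1.40 ± 0.10. *Retnlb*, a resistin-like protein that goblet cells secrete, was at 308, 531, 358 and 296 CPM against 28.1, 33.1, 85.9 and 101, a log2 ratio of 2.77 ± 1.15.

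Of 18 genes measured outside the rule from a list of STAT3 and interleukin-22 responses, which also holds *Lrg1* and *Fut2*, 4 were 2-fold higher in all libraries and none lower (all genes: 0.288% higher, 0.653% lower), with a median log2 ratio of 0.61 against -0.08 over all genes. They were *Reg3g*, *Reg3b*, *Retnlb* and *Socs3*, the feedback inhibitor of STAT3 signalling. *Socs3* was at 33.9, 30.1, 37.2 and 36.1 CPM in Plet1-set cells and at 10.7, 13.5, 11.6 and 9.93 in comparison cells, with no overlap. Summed over the list, led by *Reg3g*, the level was 25473, 25223, 24394 and 20849 CPM, without TMM scaling, against 11554, 11697, 7596 and 7927. With at least 5 of the 8 genes required, none of the 4 was 2-fold higher in all libraries (0.176% of all genes were): the lowest log2 ratio of a library was 0.88 for *Reg3g*, 0.99 for *Reg3b*, 0.49 for *Socs3* and -0.77 for *Retnlb*.

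To show where the letters TTCNNNGAA, the core that STAT factors are known to bind, stand near these genes, the 250 bases before the RefSeq start (GRCm38.p6) were searched on both strands for the 13 genes formed by the 8 rule genes with *Reg3g*, *Reg3b*, *Retnlb*, *Cd177* and *Socs3*. Of the 10 with an entry, 2 held a match, against 7.02% of all 32851 promoters, and of 29 ATF4 targets described further on 5 did. The stretches are given 5′ to 3′ on the gene's strand with the match in capitals, *Reg3b* from chr6:78370741-78370779 (plus strand) and *Socs3* from chr11:117969497-117969535 (minus strand).
*Reg3b*: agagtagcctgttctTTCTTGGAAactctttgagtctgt
*Socs3*: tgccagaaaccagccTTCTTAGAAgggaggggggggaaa
A match describes the letters only, and *Fut2*, *Hsd11b2* and *Retnlb* have no entry.

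*Gsta4* was at 17.3, 15.5, 29.4 and 25.4 CPM in Plet1-set cells and at 65.3, 64.5, 136 and 105 in comparison cells, a log2 ratio of -2.06 ± 0.12. *Scin* was at 50.4, 40.2, 27.5 and 23.9 CPM against 111, 86.8, 103 and 86.4, a log2 ratio of -1.50 ± 0.44. *Scin* is a goblet marker of the list used here, and the only 1 of 26 that was called in either direction (all genes: 0.288% higher, 0.653% lower). It did not stay 2-fold lower in all libraries among Plet1-set cells with all 3 mucus genes (mean log2 -1.05), in cells with *Xist* alone (-1.25) or in cells with Y-linked UMIs alone (-1.55). *Muc2*, the main gel-forming mucin of the gut, differed by log2 0.33 ± 0.18 and the stress gene *Nupr1* by 0.51 ± 0.11, both under 2-fold.

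Some transcription factors known for their position along the gut were looked up after their values had been seen, among 28 measured genes known to vary along the small intestine, of which 2 were called higher and 1 lower (0.288% and 0.653% of all genes). The list was shortened once after that, so it supports nothing beyond its values. The distal homeobox genes *Hoxb7* and *Hoxb8* were the 2: *Hoxb7* was at 19.5, 21.9, 29.8 and 21.6 CPM against 8.85, 7.78, 7.01 and 5.45, and *Hoxb8* had a log2 ratio of 1.67 ± 0.02. *Hoxb9* had a log2 ratio of 1.45 ± 0.60, and reached 2-fold in the libraries labelled IEC-KO only. *Onecut2*, a proximal factor, had 14, 5, 37 and 86 UMIs in Plet1-set cells and 221, 238, 335 and 622 in comparison cells, a log2 ratio of -1.85 ± 0.59. The median over the 28 genes was -0.04.

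**Figure D4:**
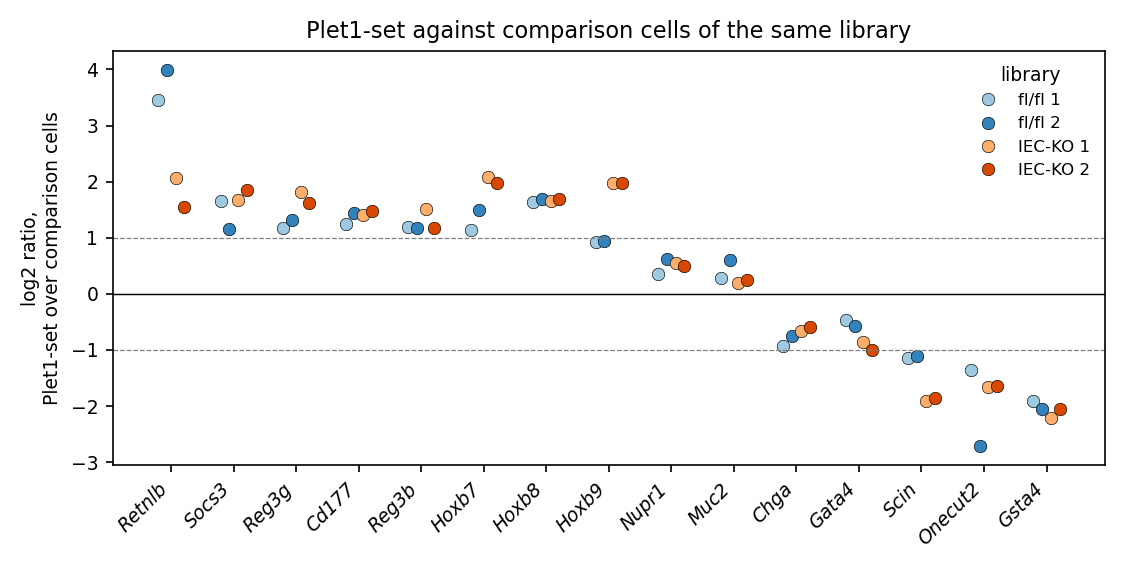
Log2 ratio of Plet1-set to comparison cells in each of the 4 libraries for 15 genes outside the rule, with dashed lines at a 2-fold difference. *Reg3g*, *Cd177*, *Hoxb8* and *Socs3* lie above the upper line and *Gsta4* below the lower one in all 4 libraries, while *Muc2* and *Nupr1* stay between the lines.

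Several of these ratios were found again within cells of 1 kind of sex-linked transcript. In cells with *Xist* and no Y-linked UMI the mean log2 ratio was 1.50 for *Reg3g*, 1.20 for *Reg3b*, 1.65 for *Cd177*, 1.72 for *Socs3* and -2.96 for *Gsta4*. In cells with Y-linked UMIs and no *Xist* it was 1.17, 0.87, 0.87, 1.47 and -1.07. The 2-fold line in all libraries was then crossed by none of the 5 genes in the second kind of cell. With *Lrg1* and *Fut2* included, 4 genes of the STAT3 and interleukin-22 list crossed it upward in the first kind (20 of 12673 genes did). In the second kind 3 of the list did (16 of 9916 genes), against 6 in all cells. At equal depth (10 and 4 fl/fl cells) *Reg3g* differed by log2 0.23 and -0.22 in the libraries labelled fl/fl and by 2.11 and 1.91 in those labelled IEC-KO, so the *Reg3g* ratio was not found at equal depth under the fl/fl label. Under that label *Reg3b* (0.76 and -0.44) and *Cd177* (0.49 and 1.55) also fell short of 2-fold in 1 or both libraries, and *Socs3* in replicate 2. *Retnlb* was 2-fold higher in all 4 (0.0624% of all genes were), with log2 ratios of 1.92 to 2.82, and under the IEC-KO label each of the 5 genes was, where *Reg3b* was lowest at 1.48.

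Over single cells with under 20% *Defa*, thinned to 3500 UMIs, the genes outside the rule most like the number of rule genes detected were *Reg3g* (Spearman's rho 0.384 and 0.372 in the 2 libraries labelled IEC-KO, 6680 and 6090 cells, 4471 genes), *Muc2* (0.355 and 0.349) and *Nupr1* (0.315 and 0.271). *S100a6*, *AW112010*, *Klk1*, *Tspan1*, *Rgs2*, *Reg3b* and *Pglyrp1* followed, down to 0.220 and 0.212. Cells of a library share its free RNA, and these values are a description.

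Between genotypes, ATF4 targets of Plet1-set cells rose nearly as a block in the libraries labelled IEC-KO, cycling genes and some goblet markers fell, and *Socs3* did not pass the test. UMIs were summed over the Plet1-set cells of each library and tested with edgeR's quasi-likelihood test. Of 8795 genes tested, 12.4% passed an adjusted p of 0.05, 601 higher (6.83%) and 489 lower (5.56%) in the libraries labelled IEC-KO. As it is not known whether libraries come from separate mice, the adjusted p-values measure the spread between these libraries only.

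Of 38 ATF4 targets tested, 36 rose and none fell, against 6.83% of all genes higher, with a median log2 fold change of 1.85 against 0.00 over all genes. *Stc2* is both on this list and in the rule, and without it 35 of 37 rose, with a median of 1.84. The pseudokinase gene *Trib3* was at 4.32 and 0.912 CPM in the libraries labelled fl/fl and at 172 and 146 in those labelled IEC-KO, a log2 fold change of 5.80 (standard error 0.26, edgeR adjusted p = 2.41e-19). *Ddit3*, which encodes the stress factor CHOP, was at 8.65 and 9.12 CPM against 188 and 158 (4.28, standard error 0.19, edgeR adjusted p = 3.15e-19). *Chac1*, an enzyme that degrades glutathione, was at 2.16 and 3.65 CPM against 114 and 92.9.

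Among enzymes of amino acid synthesis, *Phgdh* of the serine pathway was at 11.5 and 11.9 CPM in the libraries labelled fl/fl and at 164 and 140 in those labelled IEC-KO, *Psat1* at 18.0 and 19.2 against 117 and 106, and asparagine synthetase, *Asns*, at 92.9 and 88.5 against 277 and 243. *Atf4* itself was at 117 and 106 CPM against 309 and 278. *Nupr1*, the most abundant of the list, was at 618 and 670 CPM against 4125 and 3467, a log2 fold change of 2.56 (standard error 0.10, edgeR adjusted p = 3.80e-21). The tRNA synthetases *Gars*, *Aars* and *Tars* rose by log2 1.44, 0.53 and 0.51. *Iars* and *Aldh18a1* were the 2 tested targets that did not pass.

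The rise was not particular to Plet1-set cells. In comparison cells 38 of 39 ATF4 targets rose (1024 of 10990 genes, or 9.32%, rose and 8.94% fell there), with a median log2 fold change of 1.53. When the 2 differences were compared gene by gene, none of 40 ATF4 targets passed (41 of 10852 genes did, or 0.378%). Within cells that had *Xist* and no Y-linked UMI, 22 of 37 ATF4 targets tested rose in the Plet1 set (2.46% of 7246 genes rose), with a median of 1.60, and within cells with Y-linked UMIs and no *Xist* 23 of 29 did (5.62% of 3131 genes), with a median of 1.80.

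**Figure D5:**
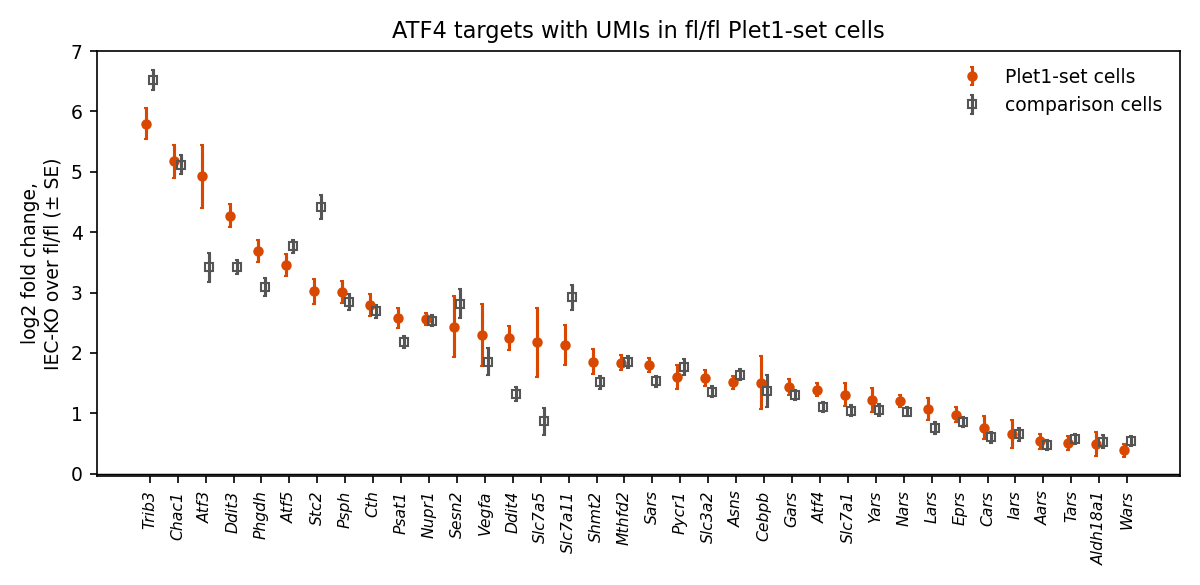
Log2 fold change between the libraries labelled IEC-KO and fl/fl for 36 ATF4 targets with UMIs in Plet1-set cells under both labels, circles for Plet1-set cells and squares for comparison cells, with standard errors from edgeR. Every circle lies above 0, from *Trib3* at 5.80 downwards.

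The composite site that ATF4 forms with C/EBP factors reads TGATGNAA on 1 strand and TTNCATCA on the other. It was present in the 250 bases before the start in 9 of the 29 risen ATF4 targets with a RefSeq entry, against 3.45% of all 32851 promoters (GRCm38.p6, both strands) and 0 of the 10 promoters searched for the STAT letters. The list was made of genes known to answer to ATF4, so a high share is not independent of how it was chosen. The other 20 hold no match in this window. Matching stretches of 8 genes are shown so that the letters and their surroundings can be read, 5′ to 3′ on the gene's strand, with each match in capitals.
*Atf3*, chr1:191183421-191183458 (minus strand): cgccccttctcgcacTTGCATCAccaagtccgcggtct
*Chac1*, chr2:119351034-119351071 (plus strand): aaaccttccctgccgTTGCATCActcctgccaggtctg
*Slc7a11*, chr3:50443638-50443694 (minus strand): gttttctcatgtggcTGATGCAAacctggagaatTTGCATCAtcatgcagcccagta
*Asns*, chr6:7693210-7693247 (minus strand): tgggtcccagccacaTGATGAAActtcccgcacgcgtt
*Gars*, chr6:55037956-55037993 (plus strand): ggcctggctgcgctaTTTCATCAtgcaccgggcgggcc
*Nupr1*, chr7:126625558-126625595 (minus strand): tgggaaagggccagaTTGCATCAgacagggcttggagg
*Pycr1*, chr11:120643829-120643866 (minus strand): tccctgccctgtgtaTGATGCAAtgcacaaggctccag
*Tars*, chr15:11399659-11399688 (minus strand): gggccaggagtcccgTTGCATCAgctggtt
The cystine transporter gene *Slc7a11* holds 2 matches on opposite strands. It was at 6.48 and 3.65 CPM in the libraries labelled fl/fl and at 25.7 and 21.5 in those labelled IEC-KO.

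The 10 largest rises were all of genes without a UMI in the fl/fl Plet1-set cells, which passed the filter on low counts through the libraries labelled IEC-KO alone. Set against a floor of 3 UMIs over both libraries, *Adig*, an adipocyte-associated gene, was at least 33.6-fold higher (0 and 0 against 225 and 376 UMIs), the stress hormone gene *Gdf15* at least 22.6-fold (165 and 239 UMIs) and *Try5* at least 16.5-fold (102 and 193 UMIs). *Cox6a2*, *G0s2*, *Grb10*, *Cyb5r2*, *Vnn3*, *Tmem114* and the antimicrobial lipocalin *Lcn2* were at least 3.69-fold to 8.62-fold higher. The calls of *Adig* and *Gdf15* were lost in cells thinned to 3500 UMIs (edgeR adjusted p = 0.323 and 0.435). The others of the 10 were too low to be tested in thinned cells. None of the 10 was tested where at least 10 UMIs were required in every library. The calls of *G0s2*, *Cox6a2* and *Grb10* were lost in cells with *Xist* alone (edgeR adjusted p = 0.132, 0.163 and 0.237), where *Adig*, *Gdf15* and *Try5* passed.

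The largest fall was that of *Gm15292*, an alpha-defensin gene by its later name, at 316 and 325 CPM against 30.2 and 42.3, a log2 fold change of -3.10 (standard error 0.12, edgeR adjusted p = 3.80e-21). Of 23 tested alpha-defensins under any name, 15 fell and 2 rose (5.56% and 6.83% of all genes), and in comparison cells 14 of 23 fell and 3 rose (8.94% and 9.32%). The limit of 20% *Defa* caps the summed level of 13 of the 27 alpha-defensins in every cell of both classes, so these counts are a description. Next came the histone gene *Hist1h2ap*, at 271 and 78.5 CPM against 34.6 and 33.8, where fl/fl replicate 1 stood high. Its log2 fold change was -2.40, with -1.21 without that library and -2.98 without fl/fl replicate 2. The call was lost at about the same fold with DESeq2 (log2 -2.35, DESeq2 adjusted p = 0.0611) and in cells thinned to 3500 UMIs (-2.35, edgeR adjusted p = 0.0720). *Mxd3*, *Cenpj*, *Arhgap42*, *Gal3st2*, *Gm4723*, *Arl14*, *Aldh3b2* and *Dnm1* fell by log2 values of 1.97 to 2.27 from low counts, of 26 UMIs or fewer in each fl/fl library, and the calls of all but *Mxd3* and *Gal3st2* were lost when 1 or another library was left out.

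Of 14 cycling markers, 10 fell (5.56% of all genes fell), with a median log2 fold change of -0.90, and in comparison cells 14 of 14 fell (8.94% of all genes), with a median of -0.99. In Plet1-set cells with *Xist* alone 5 of 14 fell (1.1% of all genes) and in those with Y-linked UMIs alone 8 of 9 (3.51%). *Mki67* was at 39.6 and 42.0 CPM in the libraries labelled fl/fl and at 19.6 and 19.7 in those labelled IEC-KO, and *Top2a* at 84.3 and 85.8 against 36.5 and 52.5. Of 77 ribosomal protein genes tested, 71 rose and none fell (6.83% of all genes rose), with a median of 0.49, and in comparison cells 66 of 77 rose and 1 fell.

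Of 26 goblet markers, 3 rose (*Muc2*, *Klk1* and the secretory factor *Foxa3*) and 11 fell, where 6.83% of all genes rose and 5.56% fell. In comparison cells 9 rose and none fell (9.32% and 8.94% of all genes). Those cells were chosen by a fixed number of UMIs of 3 goblet markers, which asks more of a shallower cell. Their median totals were 10526 and 11640 UMIs in the libraries labelled fl/fl and 5582 and 7932 in those labelled IEC-KO. The part of this in their counts was not tested. The 11 falls came to 7 in Plet1-set cells with all 3 mucus genes, where 5.11% of all genes fell, and to 4 with at least 5 of the 8 genes required (2.22%). In cells with *Xist* alone 2 rose and 4 fell (2.46% and 1.1% of all genes), and in cells with Y-linked UMIs alone none of 25 rose and 5 fell (5.62% and 3.51%). *Klk1* was at log2 0.37 in all Plet1-set cells (edgeR adjusted p = 0.00274) and at 0.33 without fl/fl replicate 2. Its call was lost in cells with Y-linked UMIs alone (log2 0.39, edgeR adjusted p = 0.0986). *Muc2* was at 5795 and 6445 CPM against 8345 and 7796. *Zg16*, a mucus lectin, was at 14044 and 16039 CPM against 7880 and 7799, *Fcgbp* at 4000 and 4143 against 3030 and 3197 and *Tff3* at 52248 and 56570 against 44530 and 43233. The *Muc2* call was lost without fl/fl replicate 1 (log2 0.32, edgeR adjusted p = 0.243), with at least 5 of the 8 genes required (0.40, edgeR adjusted p = 0.124) and in cells with *Xist* alone (0.38, edgeR adjusted p = 0.0807) or Y-linked UMIs alone (0.44, edgeR adjusted p = 0.0804). Of 24 genes of protein folding in the endoplasmic reticulum, 3 rose (*Herpud1*, *Sel1l* and *Xbp1*) and 8 fell, among them *Calr*, *Hsp90b1* and *Pdia6* (6.83% of all genes rose and 5.56% fell), and in comparison cells 6 of 25 rose and 2 fell (9.32% and 8.94%). With at least 5 of the 8 genes required, 4 of 23 folding genes fell (2.22% of all genes). In cells with *Xist* alone 4 of 24 fell (1.1%) and in cells with Y-linked UMIs alone 3 of 19 (3.51%).

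Of 14 STAT3 and interleukin-22 response genes tested outside the rule, *Bcl3* and *Lcn2* rose and *Reg3b* fell (6.83% of all genes rose and 5.56% fell), at 9815 and 9448 CPM against 6433 and 5687 (log2 -0.67, standard error 0.09, edgeR adjusted p = 1.46e-06). The *Reg3b* call was lost in cells thinned to 3500 UMIs (log2 -0.06, edgeR adjusted p = 0.949), in cells with *Xist* alone (-0.23, edgeR adjusted p = 0.413) and in cells with Y-linked UMIs alone (-0.37, edgeR adjusted p = 0.257). *Reg3g*, at 13282 and 14654 CPM against 16838 and 14327, differed by log2 0.16 (standard error 0.10, edgeR adjusted p = 0.362). It passed in thinned cells (1.12, edgeR adjusted p = 0.0168), in cells with Y-linked UMIs alone (0.72, edgeR adjusted p = 0.0339) and without IEC-KO replicate 2 (0.28, edgeR adjusted p = 0.00316). Of 14 enteroendocrine markers tested outside the rule, 7 rose (6.83% of all genes rose), among them the hormone genes *Gcg*, *Gip*, *Ghrl*, *Pyy* and *Sst*. With *Tac1* counted, 8 of 15 rose, and 8 of 22 in comparison cells (9.32% of all genes). As *Tac1* is in the rule, the counts that hold it, here and in the next sentence, are a description. In cells with *Xist* alone 4 of 11 rose (2.46%) and in cells with Y-linked UMIs alone 2 of 8 (5.62%). The summed level of all 24 was also higher in cells with 20% or more *Defa*, at 1905 and 1790 against 8138 and 7136 CPM without TMM scaling, and the part of free RNA in this was not tested.

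The genotype difference in Plet1-set cells was compared with that in comparison cells in 1 model with library as a block. Of the 41 genes that passed, 9 had a higher and 32 a lower value in Plet1-set cells, and 981 genes had an unadjusted p under 0.05. *Tac1* and *Hsd11b2* of the rule and the 3 genes that chose the comparison cells were among the 41, and without them 7 were higher and 29 lower. For the genes that chose the cells the outcome is a description and no test, as their own values set the classes. Of 26 goblet markers 8 were among the lower ones and none among the higher (0.378% of all genes passed in either direction): *Agr2*, *Tff3*, *Rep15*, *Scin*, *Guca2a* and the 3 genes that chose the comparison cells. As the count of 8 holds those 3 genes, it is a description and no test of the markers as a set. For the others, the part of depth in the choice of comparison cells was not tested. Of 25 genes of protein folding in the endoplasmic reticulum, *Calr*, *Sdf2l1*, *Manf* and *Creld2* were lower. *Hspa9*, the mitochondrial HSP70, rose by log2 1.59 in Plet1-set cells and by 0.66 in comparison cells, a difference of 0.92 (standard error 0.15, edgeR adjusted p = 0.00518). For *Retnlb* the log2 fold change was -0.36 in Plet1-set cells (edgeR adjusted p = 0.055) and 1.60 in comparison cells, which differ by -1.96 (standard error 0.16, edgeR adjusted p = 2.32e-06). *Reg3g* went the other way, with 0.16 in Plet1-set cells and -0.33 in comparison cells (edgeR adjusted p = 0.00828), a difference of 0.49 (standard error 0.06, edgeR adjusted p = 0.000105). These were the 2 of 18 STAT3 and interleukin-22 response genes that passed. *Zg16* fell by 0.94 in Plet1-set cells and was at 0.08 in comparison cells, which were chosen by it. *Xist* differed by 1.20 between the classes.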

How the data were processed

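The counts were deposited unnormalized, as whole numbers of UMIs for 27998 genes in every called cell barcode, and the submitters' processing notes name mm10 and Cell Ranger 2.1.1. All barcodes were kept; at most 132 were shared by any 2 libraries, and 2 by Plet1-set cells. The members and gene lists were chosen with earlier results of these data known. Members were classified per cell. UMIs were summed per library and class and tested with edgeR 4.0.16 (TMM, filterByExpr, quasi-likelihood test, Benjamini-Hochberg adjustment at 0.05); a standard error is the log2 fold change over the square root of F. Ratios of classes used a prior count of 0.5 and genes with at least 10 UMIs over the 8 sums. Named genes were the 8 rule genes, the 3 mucus genes, list members, *Slc7a5*, the 10 largest rises and falls whose libraries did not overlap, the 5 largest interactions each way and, for ratios, up to 15 called genes each way with 50 CPM or more in the higher class, and the 10 genes most like the number of rule genes detected; *Socs3*, the homeobox genes and *Onecut2* were named after their values were seen, the first as a list member. The *Defa* rule counts 13 of 27 alpha-defensins; the other 14 bear other names. Groups came from Leiden clustering (1500 variable genes, 20 components, 20 neighbours, resolution 0.6). Doublets were kept, and in an alternative the cells with the highest Scrublet scores (0.8% per 1000 cells) were left out. Alternatives were DESeq2 1.42.0, other scalings, filters, depths and rule limits, a replicate block and leaving out each library. The edgeR fits were tested on simulated data. Gene positions are those of GENCODE M21. The promoter motifs were paired with their gene sets after a first search of both, so both counts are given for each set. The sequence of 1 further promoter with a match and the name of 1 further gene are not reported here.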

Additional observations from a re-analysis of the deposited data

Results flagged for a closer look

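For 41 genes the difference between the genotypes in Plet1-set cells differed from that in comparison cells by the interaction test of edgeR, or 36 without the rule genes and the 3 mucus genes that chose the comparison cells. The log2 difference was largest upward for *Xist* (1.20), *Hoxb9* (1.06), *Zfos1* (0.98), *Hspa9* (0.92) and *Tifa* (0.82). It was largest downward for *B930036N10Rik* (-2.55), *Retnlb* (-1.96), *Zg16* (-0.996), *Ifi27l2b* (-0.84) and *Rep15* (-0.80). *Zg16* is 1 of those 3 mucus genes, so its value is a description. *Hoxb9* had log2 fold changes of 0.41 in Plet1-set cells (edgeR adjusted p = 0.177) and -0.63 in comparison cells (edgeR adjusted p = 0.0065). *Tifa*, an adaptor of innate immune signalling, rose by 0.49 in Plet1-set cells and fell by 0.33 in comparison cells. *Rep15*, a goblet marker, fell by 0.51 in Plet1-set cells and rose by 0.33 in comparison cells.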

How the results depend on the processing

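The difference in the share of Plet1-set cells kept its direction under every alternative that was run, none of which left *Stc2* or *Tat* out of the rule. Leaving out 1 library moved the difference between 3.50 and 6.59 points of all cells. Of Plet1-set and comparison cells it moved between 9.39 and 14.3 points. Of 345 values of single genes outside the rule under all settings, 302 kept direction and side of the threshold, 38 lost it, 5 gained it and none changed sign. A gene that a setting did not test, or for which DESeq2 gave no adjusted p, has no value there. Of 27 genes, 10 had a value in thinned cells, 10 with at least 10 UMIs in every library and 9 in cells with Y-linked UMIs alone. In thinned cells 4 of the 10 were kept, 4 lost and 2 gained. The counts of genes that rose or fell moved more (601 and 489, with 41 interactions). DESeq2 gave 289, 193 and 20. Without a filter 277 fell and 128 interactions passed. Cells thinned to 3500 UMIs gave 96 and 13, with 74 interactions, and 7 higher and 332 lower ratios (38 and 86 as reported). Requiring 5 of the 8 genes gave 261 and 150, and 23 higher and 212 lower ratios. Leaving out doublets gave 62 interactions and the limit on alpha-defensins under any name 92. Plet1-set cells with all 3 mucus genes gave 138 lower ratios, and all other cells under 20% *Defa* as the comparison 356. Cells with *Xist* and no Y-linked UMI gave 178 and 80, 18 interactions and 20 higher ratios. Cells with Y-linked UMIs and no *Xist* gave 176 and 110, 3 interactions, and 16 higher and 39 lower ratios. Scaling by library size gave 502 and 592, and TMM without alpha-defensin and ribosomal protein genes gave 686 and 373. Leaving out each library gave 374 to 560 higher, 254 to 391 lower, 30 to 220 interactions, 47 to 58 higher ratios and 103 to 162 lower ratios; the lowest counts of genes that rose or fell and the 220 interactions came without fl/fl replicate 1 (88 interactions without fl/fl replicate 2), fewer libraries have to agree in the ratios, and the lone fl/fl library was then assumed to vary like the others. The cause of these shifts was not tested. Of the rule genes, *Lrg1* (-0.18 as reported) was at log2 0.76 in thinned cells and 0.70 in cells with Y-linked UMIs alone, and between -0.40 and 0.071 with a library left out. *Hsd11b2* (-0.19) was at 0.080 and 0.11 in the same thinned and Y-linked cells. *Fut2* (0.21) was at -0.29 in thinned cells and -0.13 in cells with *Xist* alone. With the replicate number as a block 663 rose and 566 fell; with 2 pairs (Pearson's r 0.105 over 1814 genes) the numbers are not shown to pair the libraries. The alternatives on alpha-defensins under any name, on all 3 mucus genes and on sex-linked transcripts, and the ratios with 5 of the 8 genes, were chosen after seeing the data. Depth limits the fl/fl side, where 105 and 87 cells with 1333079 and 1118118 UMIs stand against 630 and 905.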
